A study of Mus musculus with 16 samples.

Results

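The genes described here encode ion channels, ion pumps and the proteins that store, release and export calcium. They were chosen by symbol: every probe whose annotated gene symbol begins with Kcn, Scn and a digit, Cacn, Hcn and a digit, Ryr, Atp1a, Atp1b, Atp2a, Atp2b, Casq or Trpm, or is Pln, Sln, Slc8a1, Trdn, Asph or Jph2. On the arrays 87 probes of 62 genes matched, and 81 probes of 60 genes were above background, with a detection p-value under 0.05, on 2 or more of the 16 arrays, out of 14058 probes so detected and 25696 in all. Of the 60 genes, 49 had 1 probe and 11 had several, led by Asph with 9. A set of 6 matching probes was detected on 1 array and was left out, and 6 of those kept (for Cacng4, Hcn3, Kcnf1, Kcnj16, Ryr1 and Ryr2) were detected on exactly 2. The symbols follow the array's annotation, and 16 genes of a list of 37 core cardiac channel and calcium genes, among them Hcn4, Kcnq1 and Casq2, were not analysed here.

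Hearts were taken at E9.25 (22 to 24 somites) from mouse embryos of C57/BL6;129Ola mixed background, and their RNA was read on Illumina beadchips. The 5 groups were control (wild type, n = 4), KO (MesP1-cre:RBPJlox/lox, n = 3), DKO (MesP1-cre:RBPJlox/lox//Axin2-/-, n = 4), hetDKO (MesP1-cre:RBPJlox/+//Axin2-/-, n = 3) and DKOhet (MesP1-cre:RBPJlox/lox//Axin2+/-, n = 2). Rbpj is the DNA-binding protein through which Notch receptors act on genes, and Axin2 is a feedback inhibitor of Wnt signalling that promotes the breakdown of beta-catenin. MesP1-cre cuts floxed DNA in early mesoderm, which includes heart precursors, so RBPJ is deleted there in KO, DKO and DKOhet hearts, called Rbpj-deleted below, while controls and hetDKO hearts are called Rbpj-carrying. HetDKO hearts carry 1 floxed RBPJ copy with the same Cre, and Axin2 loss affects the whole embryo. The annotation names neither Rbpj nor Axin2, and the targeted genes, not analysed here, offer no check of the genotypes. Whether every array holds a different embryo is not stated, and the p-values therefore measure only a spread between samples that could be partly technical.

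Each heartbeat begins when pacemaker current and sodium and calcium channels depolarise a cardiomyocyte, calcium that enters opens ryanodine receptors on the sarcoplasmic reticulum (SR), and the released calcium drives contraction. The SERCA pumps, held back by phospholamban and sarcolipin, then return calcium to the store, the sodium-calcium exchanger and plasma membrane pumps export it, and potassium channels repolarise the cell. At the stage studied the heart tube already beats, and chamber muscle and the slow muscle of the inflow and atrioventricular canal are beginning to express different channels.

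Between 12360 and 13196 probes, and between 52 and 65 of the 81 channel and calcium probes, were detected per array. Levels below are log2 signals after background correction and quantile normalisation, where a difference of 1 means a doubling. Cardiomyocyte markers were present, with 19 of 20 measured and all 19 detected in every group. The summed linear signal of 11 epicardial markers ran from 10551 to 12568 in controls, 12768 to 15981 in hetDKO, 21986 to 23769 in KO, 15066 to 29462 in DKO and 21605 to 28321 in DKOhet. Past the threshold, 6 of the 11 were higher in Rbpj-deleted hearts, beside 12.2% of all probes. Tbx18, a defining marker, was not detected in controls but was detected in hetDKO and in every Rbpj-deleted group. It was not among the 6 and passed only in DKOhet against control. The part of this epicardial shift in the results below was not tested. In whole hearts fewer cells of a type and less RNA per cell cannot be told apart. The arrays lay on 2 beadchips, and beadchip 2 held both DKOhet arrays, so differences are also given within each beadchip. The 9 comparisons share arrays (all 4 comparisons with control use the same controls), so their values are set side by side and are not independent.

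Promoter sequence is shown for Kcnab1, a potassium channel accessory subunit gene, and Hcn2, a pacemaker channel gene. Each had 1 probe that rose in Rbpj-deleted hearts, for Kcnab1 1 of its 3 probes. Hcn2 was detected on none of the Rbpj-carrying arrays, a limit described with its values below. The windows are the 250 bases before each annotated RefSeq start (build GRCm38.p6), 5′ to 3′ on the gene's strand, with any ACGTG or its reverse complement in capitals:
Kcnab1 chr3:64948962-64949211 (+ strand): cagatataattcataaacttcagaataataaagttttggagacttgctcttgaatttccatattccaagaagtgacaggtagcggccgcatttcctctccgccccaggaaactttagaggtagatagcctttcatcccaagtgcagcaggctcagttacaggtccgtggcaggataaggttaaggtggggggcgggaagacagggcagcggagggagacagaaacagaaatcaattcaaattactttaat
Kcnab1 chr3:65108764-65109013 (+ strand): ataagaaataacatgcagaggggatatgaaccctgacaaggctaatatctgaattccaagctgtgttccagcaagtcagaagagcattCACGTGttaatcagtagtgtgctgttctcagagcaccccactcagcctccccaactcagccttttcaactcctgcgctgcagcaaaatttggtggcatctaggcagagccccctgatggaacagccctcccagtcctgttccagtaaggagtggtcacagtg
Kcnab1 chr3:65187853-65188102 (+ strand): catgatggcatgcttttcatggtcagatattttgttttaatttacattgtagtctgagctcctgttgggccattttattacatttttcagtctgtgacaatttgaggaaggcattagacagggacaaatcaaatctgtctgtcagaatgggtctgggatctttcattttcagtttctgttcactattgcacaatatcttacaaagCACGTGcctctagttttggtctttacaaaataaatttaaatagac
Hcn2 chr10:79716384-79716633 (+ strand): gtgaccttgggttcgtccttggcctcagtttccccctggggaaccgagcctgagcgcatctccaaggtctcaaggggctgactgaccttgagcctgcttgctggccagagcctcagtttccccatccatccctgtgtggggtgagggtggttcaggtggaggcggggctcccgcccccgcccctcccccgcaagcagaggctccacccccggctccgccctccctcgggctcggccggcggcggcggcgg
Both strands were searched for 2 short words, TGGGAA, the core of the sequence that Rbpj binds, and ACGTG, the core of the hypoxia response element. TGGGAA was in 21.6% and ACGTG in 16.6% of all 32851 windows of this length. Among 72 windows of the 47 channel and calcium genes with a match by symbol, 11 (15.3%) held TGGGAA and 13 (18.1%) held ACGTG. Of the 11 genes past the threshold between Rbpj-deleted and Rbpj-carrying hearts, 7 matched, with 9 windows. None of the 9 windows held TGGGAA, and 2 held ACGTG. Both are windows of Kcnab1, where the capitals mark CACGTG, which reads the same on both strands and was counted once on each. A match is a description of the letters in this window.

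The widest comparison set the mean of the 3 Rbpj-deleted groups against the mean of the 2 Rbpj-carrying groups. Of the 81 probes, 13 (11 genes) passed an adjusted p of 0.05 in limma's test over all 14058 probes, or 16% of them, against 26.4% of all probes. Those that rose were Cacna1h, Kcne1, Atp1b2, Atp2a3, Kcnab1, Hcn2, Ryr1 and 2 probes of Asph, and those that fell were Scn4b, Kcne1l and 2 probes of Kcnmb4. Hcn2 was detected on none of the Rbpj-carrying arrays, so it entered the test only through Rbpj-deleted arrays. The share that rose was 11.1% of the probes (12.2% of all probes), and the share that fell was 4.94% (14.3% of all probes). The median log2 difference was -0.02 over the 81 probes and -0.02 over all probes. All 13 differences kept their sign within beadchip 1 and within beadchip 2, while none passed the threshold within beadchip 2, where the fit has 8 arrays.

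**Figure D1:**
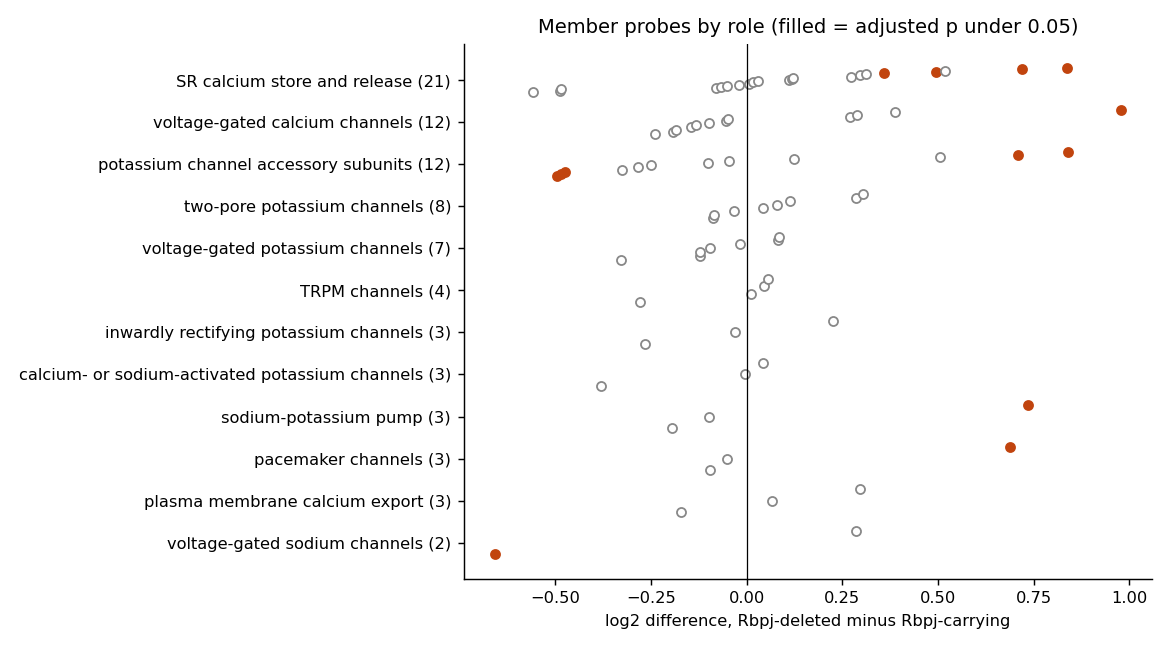
Log2 difference between Rbpj-deleted and Rbpj-carrying hearts (x axis) for each of the 81 probes, placed by the role of its gene (y axis, number of probes in brackets). Filled points passed an adjusted p of 0.05 and open points did not. The filled points lie between -0.66 (Scn4b) and 0.98 (Cacna1h). Of the 9 filled points above 0, 4 belong to the 21 probes of the SR calcium store, Asph probes among them. Of all probes 12.2% rose and 14.3% fell.

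Against control alone, fewer probes passed. In KO hearts 2 of 81 probes (2.47%) rose and none fell, against 7.58% of all probes called (3.61% higher and 3.97% lower). Hcn2, counted here and in the comparisons below, was detected on no Rbpj-carrying array and on 1 KO array. It entered the test only through Rbpj-deleted arrays. With detection required on at least 8 arrays the KO count was 1. The 2 were Hcn2 and Asph, and the next smallest p was that of Kcnmb4, on ILMN_3101339, at -0.46 ± 0.14 (SE, adjusted p = 0.0559), a value that passed without DKOhet 1 or DKOhet 2 (adjusted p = 0.0414). In DKO hearts 6 rose and 1 fell (8.64%, against 13.2% of all probes, 6.68% higher and 6.51% lower). With the replicate number as a block 11 probes passed there, 9 higher and 2 lower, among them all 7 of these, Cacna1h (0.86, adjusted p = 0.0369) and Kcnh2 (-0.37, adjusted p = 0.0362). In DKOhet hearts 4 rose and none fell (4.94%, against 8.61% of all probes, 4.30% higher and 4.32% lower). In hetDKO hearts, which keep a working RBPJ copy, limma called 0 of 81 channel and calcium probes and 0% of all probes, and 2 of the 81 had an unadjusted p under 0.05. Those 2 were Atp1b2, at -0.67 ± 0.23 (log2 difference and SE, adjusted p = 0.998), and Scn4b, at 0.63 ± 0.22 (adjusted p = 0.998), and the next was the potassium channel Kcna5, at 0.57 ± 0.29 (adjusted p = 0.998). DKO set against hetDKO, which share Axin2 loss, gave 5 of 81 probes, all higher in DKO (6.17%, against 7.86% of all probes, 4.08% higher and 3.78% lower). These were Cacna1h, Atp1b2, Hcn2 and 2 probes of Asph.

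The SR calcium store and release genes were described by 21 probes of 10 genes. Of these, 4 probes rose in Rbpj-deleted hearts, none fell and 17 did not pass, beside 12.2% of all probes higher and 14.3% lower. The 4 include ILMN_1233759 and ILMN_2610809 of the same gene, Asph. Asph, which led them, encodes an aspartyl hydroxylase and, from the same gene, junctin and junctate, SR membrane proteins of which junctin ties calsequestrin to the ryanodine receptor. Its brightest probe (ILMN_1233759) gave signals of 9.60, 9.80, 9.50 and 9.40 in control, 9.59, 9.71 and 9.62 in hetDKO, 10.25, 9.86 and 10.74 in KO, 10.27, 10.19, 10.76 and 10.35 in DKO, and 10.80 and 10.52 in DKOhet. All 9 Rbpj-deleted arrays lay above all 7 Rbpj-carrying arrays, as on 3.12% of all probes. The difference was 0.84 ± 0.13 (SE, adjusted p = 0.000349), with 0.93 within beadchip 1 and 0.61 within beadchip 2. Against control this probe rose in KO, by 0.71 ± 0.19 (SE, adjusted p = 0.0346), in DKO, by 0.81 ± 0.17 (SE, adjusted p = 0.00819), and in DKOhet, by 1.08 ± 0.21 (SE, adjusted p = 0.00793). In hetDKO the difference was 0.06 ± 0.19, with a 95% interval of -0.34 to 0.46. The KO call was lost without control 1, control 3, control 4, KO 1 or KO 3, at log2 differences of 0.48 to 0.73 and adjusted p-values of 0.0632 to 0.134. The DKOhet call was lost without DKOhet 1, at a log2 difference of 0.94 and an adjusted p of 0.096. Against hetDKO, DKO was higher by 0.75 ± 0.19 (SE, adjusted p = 0.0251), a call that was lost without hetDKO 1, hetDKO 2, hetDKO 3, DKO 3 or DKO 4, at log2 differences of 0.63 to 0.79 and adjusted p-values of 0.0521 to 0.092.

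The 9 Asph probes did not move together, although all carry the same gene symbol. A second probe, ILMN_2610809, gave 7.67, 7.73, 7.57 and 7.48 in control, 7.39, 7.30 and 7.90 in hetDKO, 7.57, 7.30 and 7.91 in KO, 8.09, 8.36, 8.44 and 8.09 in DKO, and 8.01 and 7.87 in DKOhet. Every DKO array lay above every control, hetDKO and KO array on this probe, as on 9.30%, 12.8% and 2.41% of all probes in those comparisons, and KO overlapped control. It rose in DKO against control by 0.64 ± 0.15 (SE, adjusted p = 0.0163), whereas the KO difference was -0.02 ± 0.17 with a 95% interval of -0.38 to 0.34. Without DKO 3 the DKO call was lost, at a log2 difference of 0.57 and an adjusted p of 0.0537. DKO also exceeded hetDKO on it, by 0.72 ± 0.17 (SE, adjusted p = 0.0179), a call lost without hetDKO 1, hetDKO 2 or DKO 3, at log2 differences of 0.61 to 0.65 and adjusted p-values of 0.0517 to 0.0862. Between Rbpj-deleted and Rbpj-carrying hearts it was higher by 0.36 ± 0.11 (SE, adjusted p = 0.0299), lost without control 3, hetDKO 1, hetDKO 2, KO 3 or DKOhet 1, at log2 differences of 0.30 to 0.35 and adjusted p-values of 0.0516 to 0.0864. Its within-beadchip differences in that comparison were 0.37 within beadchip 1 and 0.37 within beadchip 2.

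Further Asph probes had a like order of groups without passing the threshold. ILMN_2610810 gave 0.46 ± 0.18 in DKO against control and -0.08 ± 0.19 in KO, and ILMN_1235836 gave 0.50 ± 0.22 and -0.15 ± 0.23. ILMN_2671843 gave 0.35 ± 0.20 in DKO and -0.18 ± 0.22 in KO, and ILMN_2708404 gave 0.31 ± 0.18 and -0.15 ± 0.19. The remaining 3 probes differed from control by at most 0.20 in DKO. The brightest probe thus rose in every Rbpj-deleted group, while on ILMN_2610809 and the 4 probes just named the group mean was highest in DKO. The KO means of those 4 probes rest in part on KO 2, the lowest of all 16 arrays on each. KO 2 read 7.41 on ILMN_2610810 (KO 1 8.15, KO 3 8.38) and 5.81 on ILMN_1235836 (6.32 and 6.60). It read 5.82 on ILMN_2671843 (6.20 and 6.61) and 6.05 on ILMN_2708404 (6.64 and 6.82). DKO set against KO called 0 of the 81 probes in limma (0.0142% of all probes), with 9 of 81 at an unadjusted p under 0.05. Of those 9, 5 were Asph probes, led by ILMN_2610809 at 0.66 ± 0.17 (unadjusted p = 0.00142, adjusted p = 0.858), ILMN_2610810 at 0.54 ± 0.19 and ILMN_1235836 at 0.65 ± 0.23. The interaction, the effect of Rbpj deletion with Axin2 lost minus its effect with Axin2 present, also called 0 of the 81 probes (0.00711% of all probes), and the 5 with an unadjusted p under 0.05 were the same Asph probes. They ranged from 0.67 to 0.95, with ILMN_1235836 at 0.95 ± 0.33, ILMN_2671843 at 0.82 ± 0.31 and ILMN_2610809 at 0.74 ± 0.24 (adjusted p = 0.938 for each). Probes of a gene read the same RNA pool and are not replicates of each other. Where each probe lies in the Asph transcripts was not analysed here.

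**Figure D2:**
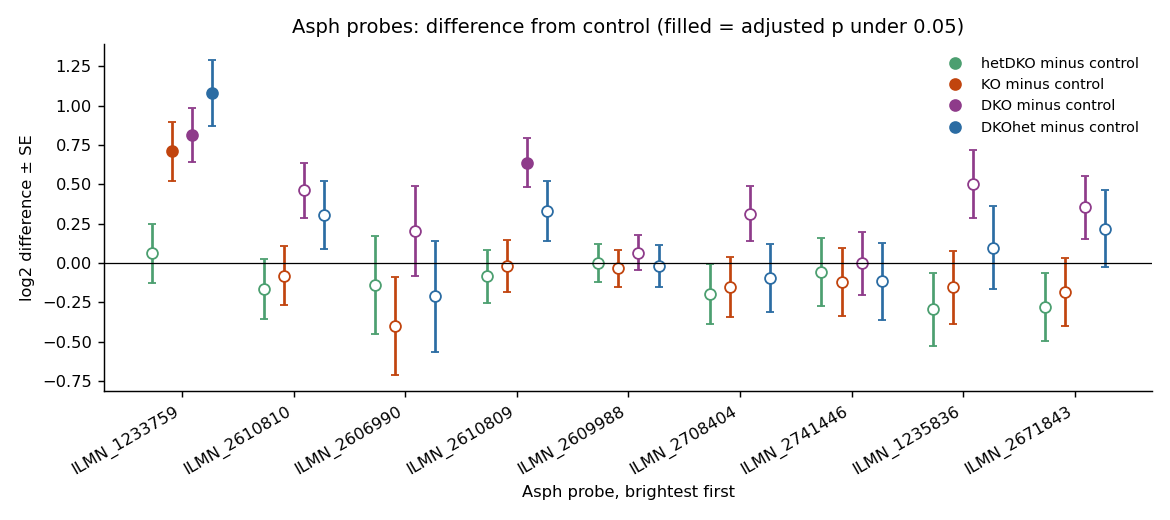
Log2 difference from control with its SE (y axis) for each of the 9 Asph probes, ordered from the brightest (x axis), in hetDKO, KO, DKO and DKOhet hearts. Filled points passed an adjusted p of 0.05. ILMN_1233759 is filled in KO, DKO and DKOhet at 0.71 to 1.08, and ILMN_2610809 is filled in DKO only, at 0.64.

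Ryr1, the ryanodine receptor best known from skeletal muscle, had 2 probes near the detection limit, and they disagreed. On ILMN_2730425 the signals were 5.67, 5.98, 5.53 and 6.66 in control, 6.0, 6.17 and 5.86 in hetDKO, 6.29, 6.37 and 6.06 in KO, 7.05, 6.37, 6.64 and 6.83 in DKO, and 6.37 and 6.58 in DKOhet. It was detected on 1 of 7 Rbpj-carrying and 4 of 9 Rbpj-deleted arrays. DKO 1 was highest, and control 4 overlapped the DKO arrays. The sizes that follow are set largely against arrays not above background, 3 of 4 controls and all hetDKO, and the probe passed the filter mainly through DKO, where 3 of 4 arrays detected it. It rose in DKO by 0.76 ± 0.21 (SE, adjusted p = 0.0298) and between Rbpj-deleted and Rbpj-carrying hearts by 0.49 ± 0.15 (SE, adjusted p = 0.0279). The within-beadchip values of the latter were 0.75 within beadchip 1 and 0.23 within beadchip 2. The DKO call was lost without control 1, control 2, control 3, DKO 1, DKO 3 or DKO 4, at log2 differences of 0.61 to 0.79 and adjusted p-values of 0.0562 to 0.0883, and the other without control 1, control 3, hetDKO 1, hetDKO 3 or DKOhet 2, at log2 differences of 0.42 to 0.49 and adjusted p-values of 0.0553 to 0.071. The second probe, ILMN_1220181, detected on 2 arrays, gave 0.03 ± 0.10 in the same comparison (adjusted p = 0.859).

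Atp2a3, the SERCA pump of blood vessel, blood and epithelial cells, was uneven among Rbpj-deleted hearts. ILMN_2900462 read 6.94, 7.06, 6.56 and 7.13 in control, 7.13, 6.59 and 6.95 in hetDKO, 7.68, 7.10 and 8.13 in KO, 7.60, 7.11, 6.60 and 6.93 in DKO, and 9.16 and 7.21 in DKOhet. DKOhet 1 stood highest and KO 3 next, while DKO 2, DKO 3 and DKO 4 lay within the control range. Its difference between Rbpj-deleted and Rbpj-carrying hearts was 0.72 ± 0.25 (SE, adjusted p = 0.0472), with 0.61 within beadchip 1 and 0.59 within beadchip 2. That call was lost with no filter on detection. The Atp2a3 call ended on leaving out control 1, control 2, control 3, control 4, hetDKO 1, hetDKO 2, hetDKO 3, KO 1, KO 3, DKO 1, DKO 2, DKO 4 or DKOhet 1, at log2 differences of 0.40 to 0.78 and adjusted p-values of 0.0505 to 0.161, the smallest difference being that without DKOhet 1. The brighter probe, ILMN_2688236, was highest in the same arrays (9.85 in DKOhet 1 and 8.98 in KO 3) and did not pass, at 0.52 ± 0.29 (SE, adjusted p = 0.212). Against control this brighter probe gave 0.85 ± 0.43 in KO, -0.03 ± 0.40 in DKO, 0.08 ± 0.43 in hetDKO and 0.85 ± 0.49 in DKOhet, and without DKOhet 2 the last became 2.12 (adjusted p = 0.00952), a value of DKOhet 1 alone with the spread taken from the other groups.

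Atp2a2, Slc8a1, Ryr2, Pln, Sln, Casq1 and Jph2, which serve calcium cycling in muscle, did not pass in any comparison with control. Atp2a2, the cardiac SERCA pump, had signals on its brighter probe of 13.20, 13.99, 13.11 and 14.18 in control, 12.73, 13.60 and 13.12 in hetDKO, 12.45, 13.16 and 13.55 in KO, 13.17, 13.46, 12.98 and 14.02 in DKO, and 13.23 and 14.05 in DKOhet. The groups overlapped, and the difference between Rbpj-deleted and Rbpj-carrying hearts was -0.02 ± 0.23, with a 95% interval of -0.52 to 0.48. Against control the brighter probe gave -0.57 ± 0.35 in KO, -0.22 ± 0.32 in DKO, -0.47 ± 0.35 in hetDKO and 0.02 ± 0.39 in DKOhet, and its second probe gave 0.02 ± 0.21 between Rbpj-deleted and Rbpj-carrying hearts. Slc8a1, the sodium-calcium exchanger, read 10.23, 10.89, 10.18 and 11.79 in control, 9.82, 10.45 and 10.33 in hetDKO, 9.72, 10.46 and 10.81 in KO, 10.68, 10.80, 10.46 and 11.30 in DKO, and 10.37 and 12.05 in DKOhet, and differed by 0.30 ± 0.29 (95% interval -0.32 to 0.91). Control 4 and DKOhet 2 were highest. Against control it gave -0.44 ± 0.42 in KO, 0.04 ± 0.39 in DKO, -0.57 ± 0.42 in hetDKO and 0.43 ± 0.48 in DKOhet. Ryr2, the cardiac ryanodine receptor, was detected only on control 4, at 7.43, and DKOhet 2, at 7.03, and the 14 other arrays lay between 5.22 and 5.59. Such a level in 14 arrays is not well above background and sets no fold.

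Pln and Sln encode phospholamban and sarcolipin, the small membrane proteins that slow SERCA. Pln read 7.20, 6.16, 7.39 and 7.56 in control, 7.45, 6.96 and 7.88 in hetDKO, 6.08, 6.49 and 6.43 in KO, 6.28, 6.26, 7.20 and 6.77 in DKO, and 7.28 and 6.97 in DKOhet. KO 1 was lowest, control 2 was next, and the groups overlapped, and Rbpj-deleted against Rbpj-carrying hearts gave -0.56 ± 0.21 (SE, adjusted p = 0.0682). Against control Pln gave -0.45 ± 0.29 in DKO, 0.36 ± 0.32 in hetDKO and 0.05 ± 0.36 in DKOhet. Pln in KO against control was -0.74 ± 0.32 (SE, adjusted p = 0.169), and without control 2, its lowest control, that became -1.05 (adjusted p = 0.0356). Sln differed by -0.49 ± 0.20 (SE, adjusted p = 0.0933) between Rbpj-deleted and Rbpj-carrying hearts. No KO array detected Sln, while 3 of 4 control arrays did, and the difference from control did not pass (adjusted p = 0.408). No fold is given for it. Casq1, the calsequestrin best known from skeletal muscle, read 6.18, 6.99, 6.72 and 8.13 in control, 5.76, 6.20 and 7.03 in hetDKO, 5.68, 5.50 and 6.53 in KO, 5.85, 6.20, 6.04 and 6.64 in DKO, and 5.74 and 7.16 in DKOhet, and control 4 was highest. The Casq1 difference in KO was -1.10 ± 0.45 (SE, adjusted p = 0.146), with -0.82 ± 0.41 in DKO, -0.68 ± 0.45 in hetDKO and -0.56 ± 0.51 in DKOhet. Jph2, which holds the SR to the cell membrane, gave 0.06 ± 0.20 in KO, -0.02 ± 0.19 in DKO, 0.01 ± 0.20 in hetDKO and 0.30 ± 0.23 in DKOhet against control.

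Several of these muscle genes, and the pump gene Atp1b1 described below, were high in the same arrays, while Pln, Sln and Jph2 were not. Pln was highest in hetDKO 3 (7.88), Sln in hetDKO 1 (7.26) and Jph2 in DKOhet 1 (7.77). Control 4 and DKOhet 2, both on beadchip 2, had the 2 highest signals of Ryr2, Slc8a1, Casq1 and Atp1b1, and the mean log2 signal of 19 cardiomyocyte markers was highest in the same arrays, at 12.42 and 12.35. KO 1 had the lowest cardiomyocyte mean, 11.16, and the lowest signals of Atp2a2, Slc8a1 and Atp1b1. The part of this in the group differences was not tested.

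**Figure D3:**
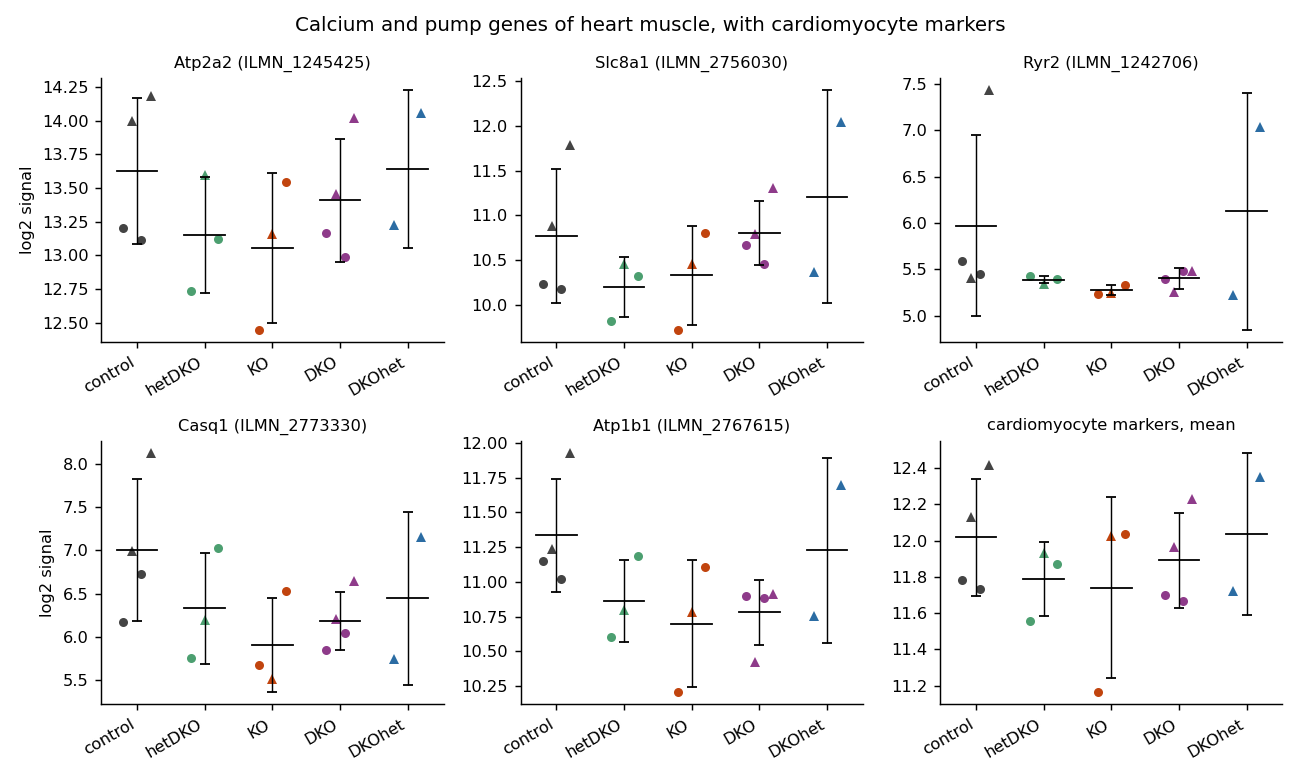
Log2 signal (y axis) per array in the 5 groups (x axis) for Atp2a2, Slc8a1, Ryr2, Casq1 and Atp1b1, with the mean of 19 cardiomyocyte markers. Circles are arrays of beadchip 1, triangles of beadchip 2, lines group means and bars the SD. Control 4 and DKOhet 2 stand at the top of their groups in every panel, at 7.43 and 7.03 for Ryr2.

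The other calcium exporters did not pass either. Atp2b1 and Atp2b4, plasma membrane calcium pumps, differed by -0.17 ± 0.13 and 0.07 ± 0.09 between Rbpj-deleted and Rbpj-carrying hearts, with adjusted p-values of 0.359 and 0.637. Against control Atp2b1 gave -0.42 ± 0.19 in KO, -0.02 ± 0.18 in DKO, -0.15 ± 0.19 in hetDKO and -0.29 ± 0.22 in DKOhet. Atp2b4 gave 0.10 ± 0.13 in KO, 0.08 ± 0.12 in DKO, 0.08 ± 0.13 in hetDKO and 0.14 ± 0.15 in DKOhet.

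Of 12 voltage-gated calcium channel probes (11 genes), 1 rose and none fell in Rbpj-deleted hearts, beside 12.2% and 14.3% of all probes. The 1 that rose was Cacna1h, the pore of a T-type channel, the low-voltage calcium channels that are prominent in embryonic and pacemaking heart muscle. Cacna1h read 9.10, 9.37, 9.15 and 9.07 in control, 8.07, 8.99 and 9.20 in hetDKO, 9.52, 8.89 and 10.37 in KO, 10.08, 9.70, 10.34 and 10.02 in DKO, and 10.35 and 10.04 in DKOhet. The 6 DKO and DKOhet arrays, KO 1 and KO 3 lay above every Rbpj-carrying array, while KO 2, at 8.89, lay among them. DKO arrays lay above every control and every hetDKO array on 9.30% and 12.8% of all probes. The rise was 0.98 ± 0.20 (SE, adjusted p = 0.00331), and 1.20 within beadchip 1 and 0.54 within beadchip 2. In DKO against hetDKO it was 1.28 ± 0.30 (SE, adjusted p = 0.0196), lost without hetDKO 1 or DKO 3, at log2 differences of 0.94 to 1.18 and adjusted p-values of 0.0563 to 0.106. Against control it did not pass, at 0.86 ± 0.28 (SE, adjusted p = 0.0568) in DKO, 1.02 ± 0.34 (SE, adjusted p = 0.0793) in DKOhet and 0.42 ± 0.30 (SE, adjusted p = 0.421) in KO, with -0.42 ± 0.30 in hetDKO. The DKO value against control passed under 6 alternatives, among them the authors' value table (0.76, adjusted p = 0.0415).

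The other T-type gene, Cacna1g, had 2 probes and passed on neither, at 0.29 ± 0.23 and 0.39 ± 0.20 between Rbpj-deleted and Rbpj-carrying hearts. The L-type pores Cacna1c, which carries the main calcium current of mature ventricular muscle, and Cacna1d, which serves pacemaker cells, were dim and differed by -0.05 ± 0.09 and -0.19 ± 0.16. For Cacna1c the 95% interval was -0.24 to 0.14. Against control Cacna1c gave 0.00 ± 0.13 in KO, -0.09 ± 0.12 in DKO, 0.08 ± 0.13 in hetDKO and 0.06 ± 0.15 in DKOhet. Cacna1d gave 0.12 ± 0.22 in DKO and 0.14 ± 0.24 in hetDKO, and the brighter Cacna1g probe 0.18 ± 0.34 in KO, 0.13 ± 0.31 in DKO, -0.12 ± 0.34 in hetDKO and 0.37 ± 0.38 in DKOhet. The auxiliary subunit Cacnb2 gave 0.27 ± 0.23 between Rbpj-deleted and Rbpj-carrying hearts, and its arrays ranged from 6.55 in control 3 to 8.07 in DKOhet 2.

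Hcn2, which encodes a channel of the pacemaker current, was higher in Rbpj-deleted hearts and close to the detection limit. Its signals were 5.60, 5.89, 5.82 and 5.87 in control, 5.66, 5.63 and 5.75 in hetDKO, 6.51, 6.18 and 6.38 in KO, 6.46, 6.33, 6.55 and 6.67 in DKO, and 6.50 and 6.33 in DKOhet. Every Rbpj-deleted array lay above every Rbpj-carrying array, as on 3.12% of all probes. The probe was detected on none of the 7 Rbpj-carrying arrays and on 4 of the 9 Rbpj-deleted arrays (1 KO, 2 DKO and 1 DKOhet), so it entered the test only through the group where it is high, and only a bound on the fold can be given where the bright group exceeds the lowest detected signals. Hcn2 was at least 1.03-fold higher in DKO than in control (adjusted p = 0.00122). Adjusted p-values were 4.63e-05 between Rbpj-deleted and Rbpj-carrying hearts, 0.0116 in KO, 0.0128 in DKOhet and 0.000969 in DKO against hetDKO. The KO call was lost without KO 1 (adjusted p = 0.0539) and the DKOhet call without DKOhet 1 (adjusted p = 0.123). Of these comparisons, the 4 that beadchip 1 allows passed for Hcn2 within it, and none of the 5 passed within beadchip 2. Hcn3, another pacemaker channel, passed on neither of its 2 probes.

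Between Rbpj-deleted and Rbpj-carrying hearts 1 of 2 voltage-gated sodium channel probes fell, beside 14.3% of all probes. Scn4b, an accessory sodium channel subunit, read 6.29, 6.63, 6.53 and 6.34 in control, 7.22, 7.09 and 6.92 in hetDKO, 5.87, 6.08 and 5.84 in KO, 6.73, 5.90, 6.98 and 6.03 in DKO, and 5.74 and 6.21 in DKOhet. The hetDKO mean was highest. KO and DKOhet lay below every control array, as on 10.7% and 16.1% of all probes, and DKO split into 2 arrays near 6 on beadchip 2 and 2 near 7 on beadchip 1. The difference was -0.66 ± 0.15 (SE, adjusted p = 0.0057), with -0.39 within beadchip 1 and -0.78 within beadchip 2, and its size rests in part on 2 groups that were not above background. In DKO against control it was -0.04 ± 0.21. No KO or DKOhet array detected Scn4b, so no fold is given for them, and their adjusted p-values against control were 0.172 and 0.263. Scn2b, another accessory subunit, did not pass and gave 0.76 ± 0.27 (SE, adjusted p = 0.0809) in DKO against control.

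The sodium-potassium pump, which sets the ion gradients the channels use, had 3 probes, all for beta subunits. Atp1b2 read 6.76, 7.03, 7.40 and 7.37 in control, 6.42, 6.28 and 6.72 in hetDKO, 7.53, 7.66 and 7.38 in KO, 7.53, 6.57, 7.70 and 7.40 in DKO, and 7.66 and 7.95 in DKOhet. All 3 hetDKO arrays lay below every control array, as on 2.74% of all probes, and DKO 2 was the lowest Rbpj-deleted array. Only 1 of the 3 hetDKO arrays detected the probe, so sizes that include hetDKO rest in part on signals not above background. Atp1b2 was higher in Rbpj-deleted hearts by 0.74 ± 0.16 (SE, adjusted p = 0.00382), with 0.71 within beadchip 1 and 0.74 within beadchip 2. Against control, no group passed: KO gave 0.38 ± 0.23 and DKO 0.16 ± 0.22. DKO exceeded hetDKO by 0.83 ± 0.23 (SE, adjusted p = 0.043), a call lost without control 2, hetDKO 1, hetDKO 2, hetDKO 3, KO 1, KO 3, DKO 1, DKO 3 or DKO 4, at log2 differences of 0.70 to 0.95 and adjusted p-values of 0.0512 to 0.14. It was also lost with no background correction, no filter on detection, the authors' value table or the replicate number as a block. Atp1b1, another beta subunit, read 11.15, 11.24, 11.02 and 11.93 in control, 10.60, 10.80 and 11.18 in hetDKO, 10.21, 10.78 and 11.11 in KO, 10.90, 10.43, 10.89 and 10.91 in DKO, and 10.75 and 11.70 in DKOhet. Control 4 was highest, DKOhet 2 next and KO 1 lowest. It gave -0.64 ± 0.27 (SE, adjusted p = 0.169) in KO and -0.55 ± 0.25 (SE, adjusted p = 0.164) in DKO, with -0.47 ± 0.27 in hetDKO and -0.11 ± 0.31 in DKOhet.

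**Figure D4:**
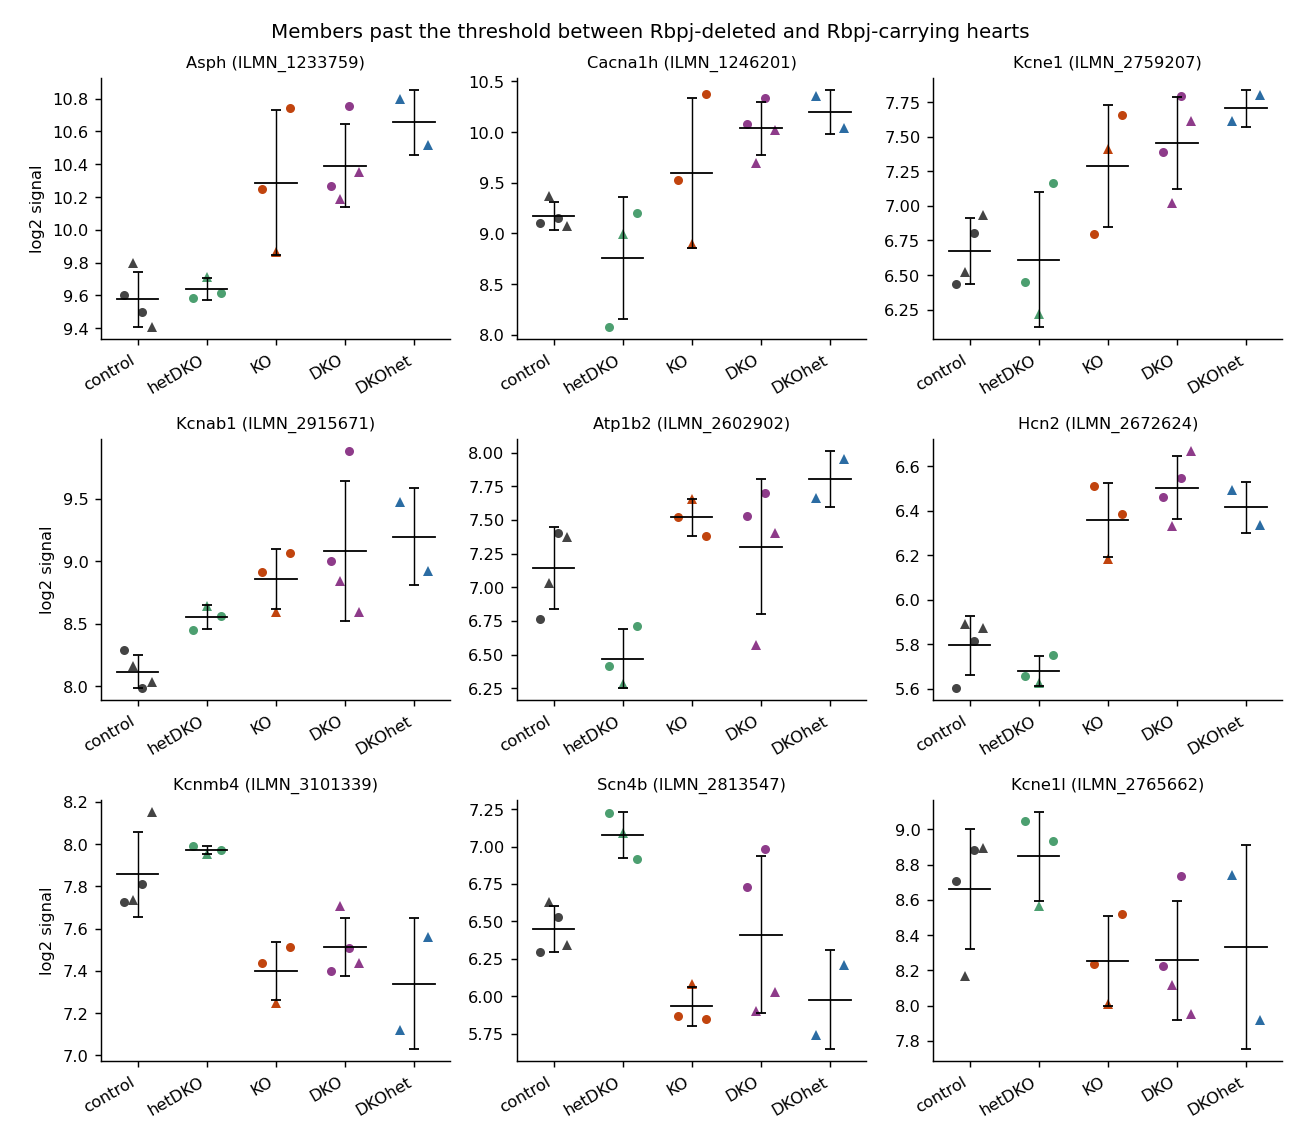
Log2 signal (y axis) per array in the 5 groups (x axis) for 9 probes that passed between Rbpj-deleted and Rbpj-carrying hearts, 1 per gene. Circles are arrays of beadchip 1, triangles of beadchip 2, lines group means and bars the SD. The Asph and Hcn2 panels show no overlap between Rbpj-deleted and Rbpj-carrying arrays, and in the Kcnmb4 panel the highest Rbpj-deleted array is at 7.71 and the lowest Rbpj-carrying array at 7.73.

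Potassium channel accessory subunits had calls in both directions. Of 12 probes (8 genes), 2 rose and 3 fell in Rbpj-deleted hearts, beside 12.2% and 14.3% of all probes. The 3 that fell include ILMN_3101339 and ILMN_2639207 of the same gene, Kcnmb4. Kcne1, whose protein joins the Kcnq1 pore to form the slow repolarising current, read 6.43, 6.52, 6.81 and 6.94 in control, 6.45, 6.22 and 7.16 in hetDKO, 6.80, 7.41 and 7.66 in KO, 7.39, 7.02, 7.80 and 7.61 in DKO, and 7.61 and 7.80 in DKOhet. KO 1 and DKO 2 lay within the Rbpj-carrying range and the 7 other Rbpj-deleted arrays above it. Its rise was 0.84 ± 0.17 (SE, adjusted p = 0.0025), with 0.70 within beadchip 1 and 1.0 within beadchip 2. It also rose in DKO by 0.78 ± 0.23 (SE, adjusted p = 0.0395) and in DKOhet by 1.03 ± 0.28 (SE, adjusted p = 0.0383), and gave 0.61 ± 0.25 (SE, adjusted p = 0.145) in KO, which passed only with the replicate number as a block (0.68, adjusted p = 0.0298). With no filter on detection the DKO and DKOhet calls were both lost. The DKO call was lost without control 1, control 2, control 3, DKO 1, DKO 3 or DKO 4, at log2 differences of 0.67 to 0.82 and adjusted p-values of 0.0637 to 0.118. The DKOhet call was lost without control 1, control 2, control 3, DKOhet 1 or DKOhet 2, at log2 differences of 0.94 to 1.13 and adjusted p-values of 0.0628 to 0.163.

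Kcnab1, a cytoplasmic beta subunit of Shaker-type potassium channels, read 8.29, 8.16, 7.99 and 8.03 in control, 8.45, 8.65 and 8.57 in hetDKO, 8.91, 8.60 and 9.07 in KO, 9.01, 8.85, 9.88 and 8.59 in DKO, and 9.47 and 8.92 in DKOhet on its brightest probe. Every mutant array lay above every control array, as on 9.61% of all probes in KO, 9.30% in DKO, 14.5% in DKOhet and 2.53% in hetDKO. The difference between Rbpj-deleted and Rbpj-carrying hearts was 0.71 ± 0.16 (SE, adjusted p = 0.00554), with 0.89 within beadchip 1 and 0.47 within beadchip 2. In DKO against control it was 0.97 ± 0.22 (SE, adjusted p = 0.0125) and in DKOhet 1.08 ± 0.27 (SE, adjusted p = 0.0273), while it did not pass at 0.74 ± 0.24 (SE, adjusted p = 0.074) in KO or at 0.44 ± 0.24 (SE, adjusted p = 0.998) in hetDKO. The DKOhet call was lost without control 3 or DKOhet 1, at log2 differences of 0.81 to 1.04 and adjusted p-values of 0.0625 to 0.231. ILMN_1216469 gave 0.51 ± 0.21 (SE, adjusted p = 0.0833) between Rbpj-deleted and Rbpj-carrying hearts, and ILMN_2618169, near background, 0.12 ± 0.12. The promoter windows printed above are those of the 3 annotated starts of Kcnab1, and the probes were not assigned to starts.

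Kcnmb4, a beta subunit of the calcium-activated BK channel best known from neurons, fell on 2 of its 3 probes. ILMN_3101339 read 7.73, 7.74, 7.81 and 8.15 in control, 7.99, 7.95 and 7.97 in hetDKO, 7.44, 7.25 and 7.51 in KO, 7.40, 7.71, 7.51 and 7.44 in DKO, and 7.12 and 7.56 in DKOhet. All 9 Rbpj-deleted arrays lay below all 7 Rbpj-carrying arrays, as on 3.03% of all probes. The difference on it was -0.50 ± 0.09 (SE, adjusted p = 0.0015), with -0.41 within beadchip 1 and -0.56 within beadchip 2. The brightest probe, ILMN_2639207, also fell, with a difference of -0.49 ± 0.12 (SE, adjusted p = 0.00798), and -0.55 within beadchip 1 and -0.46 within beadchip 2. ILMN_3028187 gave -0.25 ± 0.09 (SE, adjusted p = 0.0509) there, and fell in DKO against control, with a difference of -0.41 ± 0.12 (SE, adjusted p = 0.0397). The latter was lost without control 1, control 2, control 3, control 4, hetDKO 1, DKO 1, DKO 2 or DKO 3, at log2 differences of -0.34 to -0.44 and adjusted p-values of 0.0516 to 0.121. It was also lost with no background correction and in the authors' value table.

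Kcne1l, a Kcne family subunit on the X chromosome, fell between Rbpj-carrying and Rbpj-deleted hearts, with a difference of -0.48 ± 0.16 (SE, adjusted p = 0.0425). Its signals were 8.71, 8.17, 8.88 and 8.89 in control, 9.04, 8.56 and 8.93 in hetDKO, 8.23, 8.01 and 8.52 in KO, 8.22, 8.12, 8.73 and 7.95 in DKO, and 8.74 and 7.92 in DKOhet, and the groups overlapped. The within-beadchip values were -0.47 within beadchip 1 and -0.42 within beadchip 2. With no filter on detection Kcne1l did not pass. The call was lost with cyclic loess or median scaling in place of quantile normalisation, and without control 1, control 3, control 4, hetDKO 1, hetDKO 3, KO 1, KO 2, DKO 1, DKO 2, DKO 4 or DKOhet 2, at log2 differences of -0.34 to -0.47 and adjusted p-values of 0.0587 to 0.145.

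Pore-forming potassium channels had 7 voltage-gated, 3 inwardly rectifying, 3 calcium- or sodium-activated and 8 two-pore probes, and TRPM channels had 4. None of these passed between Rbpj-deleted and Rbpj-carrying hearts, beside 26.4% of all probes. Kcnh2, the pore of the rapid repolarising current, came closest to the threshold against control. Its brighter probe read 9.72, 9.61, 9.84 and 9.76 in control, 9.56, 9.55 and 9.73 in hetDKO, 9.14, 9.40 and 9.58 in KO, 9.43, 9.39, 9.47 and 9.16 in DKO, and 9.75 and 10.09 in DKOhet, and every KO and DKO array lay below every control array, as on 10.7% and 9.96% of all probes. The differences were -0.36 ± 0.13 (SE, adjusted p = 0.102) in KO and -0.37 ± 0.12 (SE, adjusted p = 0.0545) in DKO, with 0.19 ± 0.15 in DKOhet and -0.12 ± 0.13 in hetDKO. The DKO value passed under 8 alternatives, among them the authors' value table (-0.32, adjusted p = 0.0462). The second probe, ILMN_1244402, had group means of 9.03 in control, 8.94 in hetDKO, 8.45 in KO, 8.57 in DKO and 8.96 in DKOhet. On it the groups overlapped, with KO 3 (8.96), DKO 2 (8.76) and DKO 3 (8.81) above control 4 (8.72), and DKOhet lay below control in the mean. The brighter Kcnh2 probe also had the smallest p in DKO against DKOhet, at -0.56 ± 0.15 (adjusted p = 0.9998), where limma called 0 of the 81 probes and 0% of all probes, and 4 of the 81 had an unadjusted p under 0.05. Next in that comparison were Atp2a3 (ILMN_2900462, -1.13 ± 0.42) and Kcnn1, a small-conductance calcium-activated channel (-0.53 ± 0.22).

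Kcnj2, the inward rectifier that holds the resting potential, gave -0.43 ± 0.18 (SE, adjusted p = 0.171) in KO, -0.43 ± 0.17 (SE, adjusted p = 0.107) in DKO, -0.24 ± 0.18 in hetDKO and -0.31 ± 0.21 in DKOhet. Kcna5, the pore of an atrial repolarising current, read 6.35, 6.39, 6.82 and 7.31 in control, 7.26, 7.42 and 7.19 in hetDKO, 6.61, 7.11 and 6.50 in KO, 6.73, 7.22, 6.91 and 5.87 in DKO, and 7.06 and 7.38 in DKOhet, and gave 0.02 ± 0.29 in KO, -0.03 ± 0.27 in DKO, 0.57 ± 0.29 in hetDKO and 0.50 ± 0.33 in DKOhet against control. Across the 8 two-pore probes, which carry background potassium current, differences in Rbpj-deleted hearts ran from -0.09 to 0.30, and across the 4 TRPM probes from -0.28 to 0.06.

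Kcnn4 and the calcium channel beta subunit Cacnb4 were high in arrays with high erythroid markers, and neither passed in any comparison. Kcnn4, the Gardos channel of red blood cells, read 6.94, 6.44, 7.97 and 6.21 in control, 7.10, 6.14 and 6.91 in hetDKO, 7.86, 7.46 and 6.07 in KO, 6.51, 5.90, 6.14 and 5.91 in DKO, and 6.24 and 5.80 in DKOhet. It was highest in control 3, KO 1, KO 2 and hetDKO 1, and these 4 arrays also had the highest means of 11 erythroid markers, at 12.63, 12.87, 12.78 and 12.31. Cacnb4 read 7.41, 7.65, 8.73 and 7.57 in control, 7.66, 7.26 and 8.06 in hetDKO, 8.66, 8.18 and 7.78 in KO, 7.92, 6.80, 7.29 and 7.38 in DKO, and 7.57 and 7.03 in DKOhet, with control 3, KO 1 and KO 2 highest again. No DKO array detected Kcnn4, while 2 of 4 control arrays did, and the difference from control did not pass (adjusted p = 0.218). No fold is given for it. Erythroid markers ran from 10.82 to 11.91 in DKO and from 11.34 to 12.63 in controls, and their part in the values of Kcnn4 and Cacnb4 was not tested. An erythroid covariate, the mean of all 13 probes of these 11 markers, was added after seeing the data. With it, 10 of 31 calls on single channel and calcium probes were lost. Between Rbpj-deleted and Rbpj-carrying hearts these included Atp2a3 at 0.74 (adjusted p = 0.0605), Kcne1l at -0.41 (adjusted p = 0.0778) and Asph ILMN_2610809 at 0.34 (adjusted p = 0.0523).

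**Figure D5:**
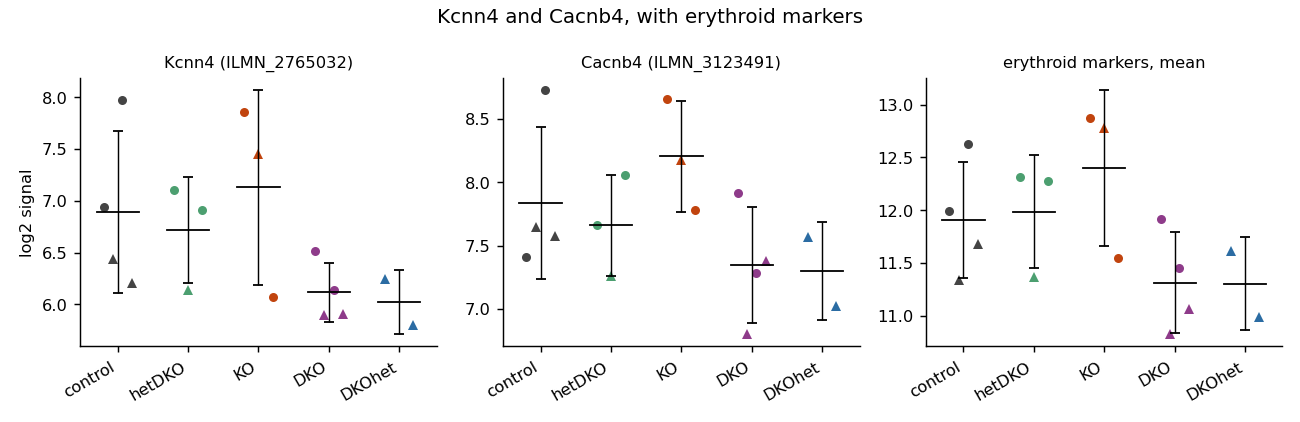
Log2 signal (y axis) per array in the 5 groups (x axis) for Kcnn4 and Cacnb4, beside the mean of 11 erythroid markers. Circles are arrays of beadchip 1, triangles of beadchip 2, lines group means and bars the SD. KO 3 is the lowest KO array in all 3 panels, at 6.07, 7.78 and 11.55.

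Partners of these channels and pumps were read from 3 lists, chosen with earlier results of these data known. Counts are of genes by their brightest probe, while the shares beside them are of probes, so they do not test the lists. Of 32 calcium signalling partners measured, 11 rose and 2 fell between Rbpj-deleted and Rbpj-carrying hearts, with a median of 0.08 against -0.02 for all probes, of which 12.2% rose and 14.3% fell. Of the 11, Jph1 was detected on none of the Rbpj-carrying arrays, so it entered the test only through Rbpj-deleted arrays. Itpr3, an IP3 receptor that releases calcium from the endoplasmic reticulum, rose by 1.02 ± 0.12 (SE, adjusted p = 4.61e-05), with every Rbpj-deleted array above every Rbpj-carrying array, as on 3.12% of all probes, and 1.01 and 1.01 within beadchips 1 and 2. Its relative Itpr2 rose by 0.69 ± 0.15 (SE, adjusted p = 0.00428), S100a1, a calcium sensor of heart muscle, by 0.77 ± 0.14 (SE, adjusted p = 0.00137), and Hrc, a calcium-binding protein of the SR lumen, by 0.69 ± 0.18 (SE, adjusted p = 0.0125). Letm1, an ion exchange protein of the inner mitochondrial membrane, fell by 0.66 on the log2 scale (adjusted p = 0.000253). Against control, 4 partners rose and 1 fell in KO (3.61% and 3.97% of all probes), 5 rose and 1 fell in DKO (6.68% and 6.51%), and limma called 0 of 32 in hetDKO (0% of all probes). Jph1, not detected on any control array, was among those that rose in KO and in DKO.

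Of 23 other cation and chloride channels and carriers, 6 rose and 1 fell in Rbpj-deleted hearts (12.2% and 14.3% of all probes), with a median of 0.16. Of the 6, P2rx3 and P2rx4 were detected on none of the Rbpj-carrying arrays and entered the test only through Rbpj-deleted arrays. Clcn3, a chloride-proton exchanger of endosomes, rose by 0.75 ± 0.14 (SE, adjusted p = 0.00167), and Vdac1, the pore of the outer mitochondrial membrane, by 0.40 ± 0.09 (SE, adjusted p = 0.00391). Of 18 regulators and junction proteins of the conduction system, 4 rose and 1 fell, beside the same shares of all probes. The gap junction gene Gja5 fell by 2.33 on the log2 scale (adjusted p = 3.65e-07), while Gja1 rose by 0.26 ± 0.07 (SE, adjusted p = 0.0125), the transcription factor Irx3 by 0.44 ± 0.10 (SE, adjusted p = 0.0056), and Gata6 by 0.50 ± 0.13 (SE, adjusted p = 0.0134). All 25 list genes called in this comparison kept their sign within both beadchips.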

How the data were processed

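Bead intensities and detection p-values of 25696 probes on 16 Illumina arrays were used as the authors deposited them, not normalised, per the file headers. RNA was extracted with Trizol and an RNeasy column and labelled as biotin cRNA, per the labels' protocols, and scanning software was BeadStudio, per the submitters' processing notes, its version not given in the sources used here. A second table, the authors' deposited value table of normalised intensities (14788 probes, linear, array medians of 594.4 to 594.5) served as an alternative.

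From the intensities, background was corrected with normexp fitted from detection p-values (offset 16), values were taken to log2 and quantile normalised, and the 14058 probes with detection p under 0.05 on at least 2 arrays were kept. Limma 3.58.1 in R 4.3.3 fitted 1 mean per group over all 16 arrays (11 residual and 3.52 prior degrees of freedom), and p-values were adjusted over all kept probes by Benjamini-Hochberg, with a threshold of 0.05. The offset shrinks differences of dim probes, and the number of arrays limits precision. Genes were named from the platform annotation: 13238 kept probes had 1 symbol and 820 had none. A gene with several probes was named by the brightest, others where they disagreed. A probe undetected on every array of a group has only a bound there: the fold given is the bright group's mean over, per array, the higher of the lowest detected signal and the probe's own. Figures were drawn with matplotlib 3.10.9. The fit was tested on simulated data.

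Genes were named in the text if past the threshold, if among the smallest p-values where fewer than 3 passed, or if on the core cardiac list. Members and lists were chosen with earlier results of these data known. Alternatives were no background correction, cyclic loess, median scaling, both other detection filters, the deposited table, beadchip or replicate number as a block, each beadchip alone and leaving out each array. Same-numbered arrays of DKO and control, and of DKO and KO, deviated together on every pair (correlations over 0.1). The main fit has no block and ignores this pairing, and counts with the replicate number as a block are given beside it. The erythroid covariate was added after seeing the data. Promoter windows were matched by symbol to RefSeq.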

Additional observations from a re-analysis of the deposited data

Results flagged for a closer look

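In 2 of 70 groups of 4 arrays examined (35 probes of 28 genes in control and DKO), 1 array stood apart from the rest by Dixon's criterion, where chance gives about 1 in 20 groups. Ryr2 read 7.43 in control 4, and 5.41 to 5.59 in the other 3 controls. Atp1b1 read 10.43 in DKO 2, and 10.89 to 10.91 in the other 3 DKO arrays.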

How the results depend on the processing

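Of 31 calls on single probes, recomputed under the alternatives as 826 values, 669 stayed past the threshold, 157 did not and 0 reversed. Of 88 named results that had not passed, recomputed as 2339 values, 22 became past it and 101 changed sign while not past. The count of channel and calcium probes called, 2 in KO against control, was 1 with detection required on at least 8 arrays, 1 within beadchip 1 and 0 within beadchip 2. The count of 7 in DKO against control was 11 with the replicate block, 2 within beadchip 1 and 0 within beadchip 2. The counts of 4 in DKOhet against control and of 13 between Rbpj-deleted and Rbpj-carrying hearts were 0 within beadchip 2. The count of 5 in DKO against hetDKO was 2 with the erythroid covariate, 9 with the beadchip as a block and 0 on arrays of beadchip 2 alone. The cause was not tested, beyond the smaller number of arrays (8) within a beadchip. Leaving out 1 array in turn gave 0 to 3 calls in KO, 3 to 9 in DKO, 0 in hetDKO and 0 to 6 in DKOhet, each against control. DKO gave 1 to 10 calls against hetDKO, 0 to 1 against DKOhet and 0 against KO, with 9 to 14 between Rbpj-deleted and Rbpj-carrying hearts, and 0 in the interaction.

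The replicate numbers in the sample titles were checked for pairing. Of 27 pairs of same-numbered arrays, 18 deviated together with a correlation over 0.1 (from -0.0094 to 0.3457), and 7 of 16 arrays correlated best with their own number, and outside DKOhet 1 the same number also means the same beadchip. Every pair was over 0.1 for DKO with control (0.1752 to 0.3122) and DKO with KO (0.1266 to 0.2414), and not for the other comparisons of 3 or more pairs. With the replicate block the counts were 3 in KO, 11 in DKO, 0 in hetDKO, 6 in DKOhet, and for DKO 6 against hetDKO, 0 against KO and 0 against DKOhet, with 16 between Rbpj-deleted and Rbpj-carrying hearts and 0 in the interaction.

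DKOhet has 2 arrays, both on beadchip 2, so its comparisons have no value within beadchip 1, and within beadchip 2 the KO and hetDKO groups hold 1 array each, assumed to vary like the others, as is the 1 DKOhet array that stays when the other is left out. Of the 81 probes 37 were detected on all 16 arrays, 29 on 5 to 15 and 15 on 2 to 4. Over all probes the split of KO calls was 507 higher of 1065, 545 of 1021 with cyclic loess and 429 of 1083 with median scaling.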
